A study of Mus musculus with 13 samples.

Results

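DSP-4 is a neurotoxin taken up by the norepinephrine transporter, and it damages the axons of norepinephrine neurons, above all those of the locus coeruleus, the pontine nucleus that supplies most of the forebrain with norepinephrine. The comparison described here is that of DSP-4 with saline in ribosome-bound mRNA from these neurons. It was taken by sample label and holds 9 of the 13 libraries of the series, 6 from DSP-4 treated and 3 from saline treated mice, and the other 4 libraries are whole-tissue input. All mice, saline controls included, carried the *Slc6a2*-eGFP/Rpl10a transgene on a C57BL/6 background, which puts a green fluorescent tag on the large ribosomal subunit protein Rpl10a under the promoter of the norepinephrine transporter gene. Translating ribosome affinity purification (TRAP) then pulls down tagged ribosomes with the mRNA on them. Mice aged 6 to 8 months received 2 injections of 50 mg/kg DSP-4 or of saline, on days 1 and 7, and tissue was taken on day 14. The tissue was the hindbrain with the cerebellum removed, so that noradrenergic cell groups other than the locus coeruleus may be in it. Each TRAP library was its own pool of 2 mice of the same sex, and the labels do not give which sex. The tag is driven by a promoter of the same gene whose own mRNA is compared below, and the part this plays in any value was not tested.

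Norepinephrine neurons make their transmitter from tyrosine, through L-DOPA and dopamine. Tyrosine hydroxylase (*Th*) needs tetrahydrobiopterin for the first step, dopa decarboxylase (*Ddc*) takes the next, and dopamine beta-hydroxylase (*Dbh*) makes norepinephrine inside vesicles that the vesicular monoamine transporter (*Slc18a2*) fills. The transporter *Slc6a2* brings released norepinephrine back into the cell, and it is also the route by which DSP-4 enters. Many locus coeruleus neurons also release the peptide galanin (*Gal*).

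The 9 libraries held between 17491357 and 29199550 counts over 12009 genes. Levels are given as CPM, which are counts brought to the same library total, after scaling by the trimmed mean of M-values (TMM), and the difference for each gene is a log2 fold change of DSP-4 over saline with its standard error (SE) from edgeR's quasi-likelihood test, fitted over all genes at once. In a principal component analysis of log2 CPM, DSP-4 library 2 stood apart on the first component, which took 34.5% of the variance, and DSP-4 library 3 on the second, which took 21.3%. Results are therefore given with all 6 DSP-4 libraries and, where it matters, with the 4 that remain without these. The labels do not say whether the separate pools were handled on separate days. Fewer noradrenergic cells and less RNA per cell cannot be told apart in these data. The mean *Slc6a2* level in saline TRAP was 26.8 times that in saline input, and that of *Dbh* 13.1 times. Saline samples with little *Slc6a2* enrichment had been set aside by the study, so the saline ratio of *Slc6a2* follows in part from that choice. In DSP-4 mice the same ratios were 14.1 for *Slc6a2* and 6.05 for *Dbh*. The *Slc6a2* ratio there rests on low input levels, 4.52 CPM in DSP-4 input 2 and 1.83 CPM in DSP-4 input 7. The ratio of *Gal* was 7.36 after saline and 3.95 after DSP-4, and that of *Th* 2.8 and 1.89. That of *Slc18a2* was 5.34 after saline and 7.1 after DSP-4, where its mean TRAP level was lower after DSP-4 (158.9 against 189.2 CPM, scaled over all 13 libraries) and so was its input level (22.39 against 35.41 CPM, 2 libraries each).

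At a false discovery rate (FDR, Benjamini-Hochberg adjusted p) under 0.1, 3 genes were lower after DSP-4, 0.025% of those tested, and 0 were higher (0%). The 3 were *Gal*, *Dbh* and *Slc6a2*. At an unadjusted p under 0.05, without correction for multiple tests, 151 genes were lower (1.26%) and 75 higher (0.625%). Together these are 1.88% of the genes, which is under the 5% that this threshold alone would pass. The groups did not overlap, with every DSP-4 library on the same side of every saline library, for 65 genes lower after DSP-4 (0.541%) and 78 higher (0.65%). Beyond *Gal*, *Dbh* and *Slc6a2*, then, every difference below is a value that did not pass the correction for 12009 tests, and the words lower and higher state only where the DSP-4 mean lay. Of the 226 genes under the unadjusted threshold, 66.8% were lower with TMM scaling, while scaling by total counts alone gave 100 lower and 113 higher, 46.9% lower. With single libraries left out, the number lower at this threshold ran from 47 without saline library 6 to 306 without saline library 12, and the number higher from 62 without saline library 6 to 147 without DSP-4 library 2. Without DSP-4 libraries 2 and 3 the same 3 genes passed the FDR, 0 were higher, and at the unadjusted threshold 475 were lower (3.96%) and 184 higher (1.53%). Of the original genes at that threshold, 130 of the 151 lower and 47 of the 75 higher were again under it.

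**Figure D1:**
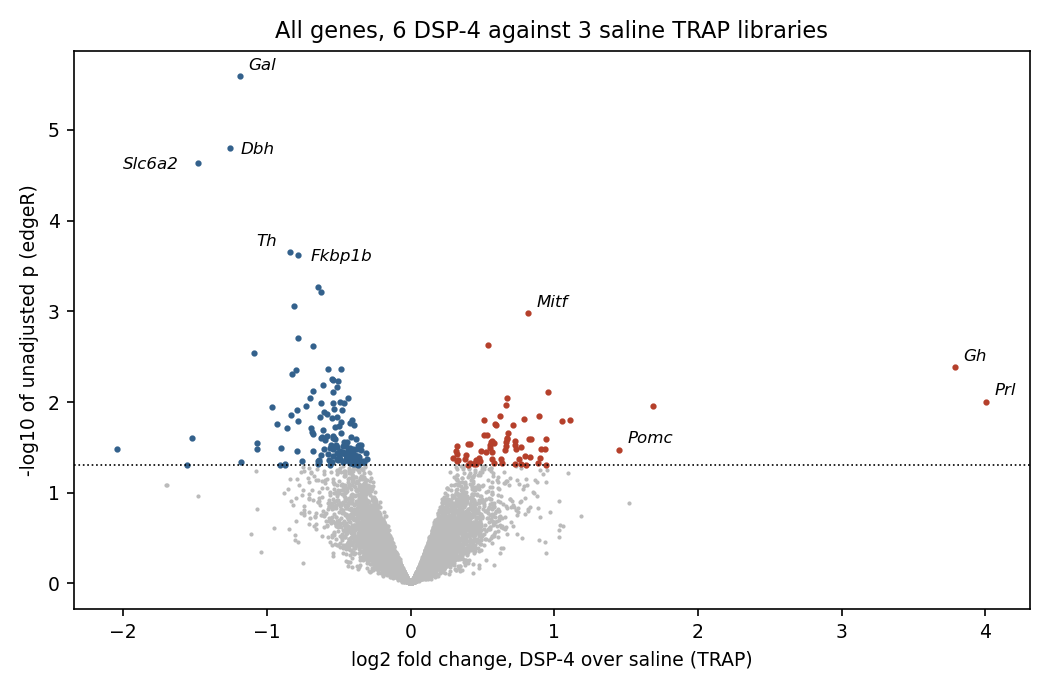
Each point is 1 of the 12009 genes, with the log2 fold change of DSP-4 over saline TRAP on the x axis and minus log10 of the unadjusted edgeR p on the y axis, where the dotted line marks p of 0.05. *Gal*, *Dbh* and *Slc6a2* lie at the top left with log2 fold changes of -1.18, -1.26 and -1.48, and no gene on the right reaches their height.

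The 3 genes that fell are the transmitter-making enzyme, the reuptake transporter and the co-released peptide of these cells. *Gal* (chr19:3409915-3414544, minus strand, mm10, positions here and below from GENCODE) stood at 105, 99.1 and 111 CPM in saline libraries 4, 6 and 12, and its lowest, median and highest DSP-4 levels were 34.1, 48.6 and 52.5 CPM. It fell by 1.18 ± 0.16 (SE) on the log2 scale (edgeR FDR = 0.0307). The DSP-4 values were all close together and the groups were far from touching. *Dbh* (chr2:27165233-27183200, plus strand) stood at 148, 131 and 137 CPM after saline against 40.2, 52.2 and 83.1 CPM after DSP-4, where the top value was that of DSP-4 library 9. It fell by 1.26 ± 0.20 (SE) on the log2 scale (edgeR FDR = 0.0928). *Slc6a2* (chr8:92960079-93001667, plus strand) stood at 129.8, 122 and 129 CPM after saline and 28.1, 42.1 and 74.3 CPM after DSP-4. It fell by 1.48 ± 0.24 (SE) on the log2 scale (edgeR FDR = 0.0928). Its highest DSP-4 value was that of library 2, one of the libraries that stood apart, and without libraries 2 and 3 its log2 fold change was -1.62 (edgeR FDR = 0.00329), that of *Gal* -1.14 (edgeR FDR = 0.00329) and that of *Dbh* -1.11 (edgeR FDR = 0.047). By the study's methods, saline samples with little *Slc6a2* enrichment had been set aside, so the saline group was in part chosen on this gene. The methods give 6 replicates per treatment and 2 saline samples removed, which leaves more than the 3 saline TRAP libraries labelled here. The reason for that gap is not given.

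The adjusted calls of these 3 genes rested on single libraries more than their sizes did. With 1 library left out at a time, the log2 fold change of *Gal* stayed between -1.22 and -1.11, but its edgeR FDR was over 0.1 without DSP-4 library 1 (0.148) or 7 (0.126) and without saline library 4 (0.299), 6 (0.218) or 12 (0.196). The log2 fold change of *Dbh* stayed between -1.37 and -1.17, and its edgeR FDR was under 0.1 only without DSP-4 library 2 (0.0205) or 9 (0.036), with the highest value, 0.663, without saline library 4. The log2 fold change of *Slc6a2* stayed between -1.67 and -1.37, and its edgeR FDR was under 0.1 only without DSP-4 library 2 (0.00149), with the highest value, 0.663, also without saline library 4. Leaving out a saline library leaves only 2 in that group.

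The upstream sequences of *Gal*, *Th* and *Dbh* are shown because these genes are among the largest differences of the noradrenergic set and because the transcription factor *Phox2a*, which binds ATTA-type homeodomain sites, is known to drive *Dbh* and *Th*. They are given 5′ to 3′ on the strand of the gene from RefSeq (GRCm38.p6), where the start is the annotated transcription start. Capitals mark ATTA, on either strand, or TGACGTCA, the palindromic cAMP response element. The *Gal* window is chr19:3414545-3414794, the 250 bases before the start. The *Th* window is chr7:142900021-142900245, from 250 to 26 bases before the start. The *Dbh* window is chr2:27165345-27165374, from 162 to 133 bases before the start. By the GENCODE positions the *Th* and *Dbh* windows both lie inside the annotated gene, which for *Th* is chr7:142892752-142931128 on the minus strand.
Gal: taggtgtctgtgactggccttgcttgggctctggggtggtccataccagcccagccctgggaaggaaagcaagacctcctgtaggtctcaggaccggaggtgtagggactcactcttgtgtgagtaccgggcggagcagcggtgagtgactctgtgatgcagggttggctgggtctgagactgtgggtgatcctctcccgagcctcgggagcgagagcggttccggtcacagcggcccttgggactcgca
Th: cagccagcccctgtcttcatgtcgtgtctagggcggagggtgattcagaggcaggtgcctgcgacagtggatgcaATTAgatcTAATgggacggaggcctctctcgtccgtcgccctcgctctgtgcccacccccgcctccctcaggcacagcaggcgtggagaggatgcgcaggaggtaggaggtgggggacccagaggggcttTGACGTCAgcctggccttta
Dbh: gtgtcATTAgtgccaATTAggggagatgtg
The 250 bases before *Gal* held 0 matches to either motif. Those before *Th* held 2 matches to ATTA and 1 to TGACGTCA, and those before *Dbh* held 3 matches to ATTA, of which the 2 nearest each other are printed. ATTA is common, being present in 54.9% of 32851 promoter windows of this length and in 39.1% of the 11931 windows whose gene is in the count table. TGACGTCA was in 1.55% and 2.66% of these. A match is a description of the letters and not a measured binding site, and *Slc6a2* had no entry in the promoter table.

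Among the 20 measured genes of norepinephrine synthesis, storage, reuptake and breakdown, *Dbh* and *Slc6a2* fell, 18 did not pass the FDR and 0 rose. In all, 5 were lower at the unadjusted threshold and 0 higher, and 4 had groups that did not overlap, all lower, beside 1.26% lower and 0.541% lower without overlap over all genes. The median log2 fold change of the 20 was -0.12, beside 0.00 for all genes, and it ran from -0.20 without DSP-4 library 2 to -0.06 without DSP-4 library 3. *Th*, the rate-limiting enzyme of the pathway, stood at 156, 103 and 171 CPM after saline against 68.01, 80.2 and 96.2 CPM after DSP-4, so that the groups did not overlap (log2 fold change -0.84 ± 0.17, SE, edgeR unadjusted p = 0.000221, FDR = 0.574). The saline values of *Th* were spread more widely than those of *Dbh*, with saline library 6 the lowest. *Slc10a4*, a vesicular transporter-like protein of monoaminergic and cholinergic terminals, stood at 84.4, 76.7 and 79.6 CPM against 44.2, 51.7 and 58.3 CPM, again without overlap (log2 fold change -0.65 ± 0.15, SE, edgeR unadjusted p = 0.000544). *Cyb561*, the vesicle cytochrome that passes electrons in for *Dbh*, overlapped between groups through DSP-4 library 2 at 140.2 CPM, and its log2 fold change moved from -0.45 to -0.63 without libraries 2 and 3.

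The neighbouring steps did not show differences of this size. *Ddc* stood at 194, 143 and 175 CPM after saline and 131, 165 and 185 CPM after DSP-4, with overlapping groups (log2 fold change -0.07 ± 0.15, SE, edgeR unadjusted p = 0.673). *Slc18a2* stood at 189.5, 196 and 195 CPM and 110.1, 154 and 234 CPM (log2 fold change -0.26 ± 0.19, SE, edgeR unadjusted p = 0.2). Its highest value was again DSP-4 library 2 at 234 CPM, and every other DSP-4 library lay under the saline libraries. *Maoa*, the oxidase of norepinephrine breakdown, overlapped between groups, at -0.38 ± 0.20 (SE) on the log2 scale. Whether the difference in *Dbh* or *Slc6a2* was itself larger than that in *Ddc* or *Slc18a2* was not tested.

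**Figure D2:**
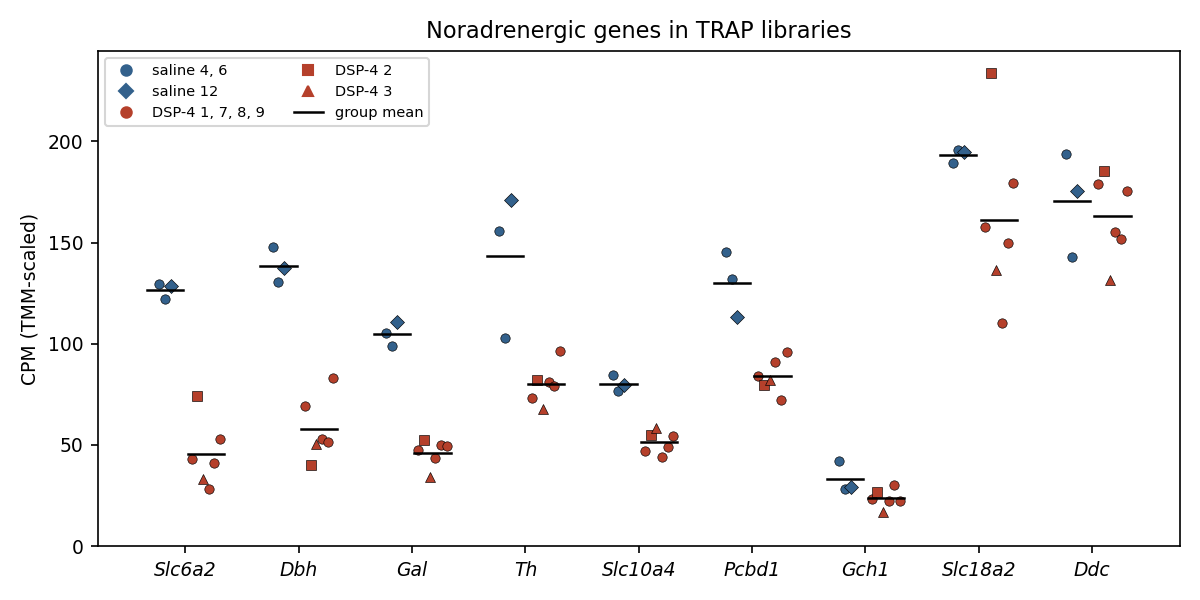
The x axis lists genes of the noradrenergic or tetrahydrobiopterin set, and the y axis gives their CPM in the 9 TRAP libraries. Saline 4 and 6 are circles, saline 12 is a diamond and the group mean is a bar. DSP-4 1, 7, 8 and 9 are red circles, DSP-4 2 is a square and DSP-4 3 is a triangle. *Slc6a2*, *Dbh*, *Gal*, *Th*, *Slc10a4* and *Pcbd1* show no overlap of the groups, while *Gch1*, *Slc18a2* and *Ddc* overlap.

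Tetrahydrobiopterin is the cofactor of tyrosine hydroxylase, and 8 genes of its synthesis and recycling were measured, with a median log2 fold change of -0.30. Of these, 0 passed the FDR, 2 were lower at the unadjusted threshold and 0 higher, beside 1.26% and 0.625% of all genes. *Pcbd1*, whose product is part of the recycling of the cofactor, stood at 145, 132 and 113 CPM after saline and 72.4, 83.2 and 96.1 CPM after DSP-4 (log2 fold change -0.62 ± 0.14, SE, edgeR unadjusted p = 0.000614). The groups did not overlap, and all DSP-4 libraries were within a narrow span. *Gch1*, the rate-limiting enzyme of cofactor synthesis, stood at 41.9, 28.3 and 29.1 CPM and 16.96, 22.9 and 30.3 CPM, where DSP-4 library 8 reached into the saline range (log2 fold change -0.48 ± 0.21, SE, edgeR unadjusted p = 0.0369). *Pts*, the next enzyme, had a log2 fold change of -0.27, *Spr*, the last step of synthesis, one of 0.03, and *Qdpr*, the reductase of recycling, one of 0.05, and all of them overlapped. The list median ran from -0.41 without saline library 12 to -0.15 without saline library 4.

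The transcription factors that set up and hold noradrenergic identity numbered 13, with a median log2 fold change of -0.02 and 1 lower at the unadjusted threshold. That gene was *Phox2a*, at 11.3, 14.7 and 12.2 CPM after saline and 3.71, 6.44 and 12.3 CPM after DSP-4 (log2 fold change -0.93 ± 0.35, SE, edgeR unadjusted p = 0.0174). It was low in every library, and DSP-4 library 9 alone lay inside the saline range. Of the 13, 7 had a negative log2 fold change, among them *Tfap2b* at -0.09 ± 0.23 and *Gata2* at -0.05 ± 0.62 (SE).

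Of 29 neuropeptide and peptide-processing genes, *Gal* fell, 28 did not pass the FDR and 0 rose. The median log2 fold change was -0.02, and at the unadjusted threshold 2 were lower and 2 higher, beside 1.26% and 0.625% of all genes. *Calca*, which codes for calcitonin gene-related peptide and calcitonin, was the other lower gene, with 103, 82.2 and 79.02 CPM after saline and 49.2, 62.1 and 71.1 CPM after DSP-4, and no overlap (log2 fold change -0.52 ± 0.16, SE, edgeR unadjusted p = 0.00689). *Trh*, thyrotropin-releasing hormone, was higher and did not overlap either, with 10.2, 12.5 and 11.4 CPM and 12.9, 16.2 and 21.2 CPM (log2 fold change 0.56 ± 0.23, SE, edgeR unadjusted p = 0.03). The other higher gene was *Pomc*, which is taken up with the pituitary genes below. *Npy*, which noradrenergic neurons also make, had a log2 fold change of -0.07 ± 0.27 (SE).

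Receptors for peptides numbered 24, with a median log2 fold change of -0.02. At the unadjusted threshold 2 were lower and 0 higher, beside 1.26% and 0.625% of all genes. *Hcrtr1*, the orexin receptor through which hypothalamic orexin neurons excite the locus coeruleus, stood at 16.7, 18.7 and 18.7 CPM after saline and 9.40, 12.6 and 14.8 CPM after DSP-4 (log2 fold change -0.53 ± 0.21, SE, edgeR unadjusted p = 0.0256). *Calcr*, the calcitonin receptor, stood at 11.998, 16.5 and 17.2 CPM and 3.62, 10.8 and 11.7 CPM (log2 fold change -0.76 ± 0.34, SE, edgeR unadjusted p = 0.045). Neither overlapped, but for *Calcr* the highest DSP-4 value and the lowest saline value were almost level. The 7 adrenergic receptors had a median log2 fold change of 0.03 and none under the unadjusted threshold.

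The 25 lower genes of smallest p held *Gal*, *Dbh*, *Slc6a2*, *Th*, *Slc10a4* and *Pcbd1*, and also neuronal genes of several other kinds. Of the 25, 15 had groups that did not overlap, beside 0.541% of all genes. All 25 were under the unadjusted threshold also without DSP-4 libraries 2 and 3, beside 3.96% of all genes lower there. The 25 were picked by p in these same libraries, so both counts follow in part from that choice and lend the genes no support. *Fkbp1b*, which codes for the calstabin that binds and steadies ryanodine receptor calcium channels, came next after *Th* in order of p. It stood at 104, 97.02 and 84.6 CPM after saline and 42.8, 55.3 and 68.5 CPM after DSP-4, without overlap (log2 fold change -0.79 ± 0.16, SE, edgeR unadjusted p = 0.000239, FDR = 0.574). Among the 26 measured genes of calcium stores and FK506-binding proteins the median was -0.01, and besides *Fkbp1b* only *Calr3*, a calreticulin relative, was under the unadjusted threshold, at a log2 fold change of -1.07 ± 0.45 (SE) with overlapping groups. *Ryr2*, the ryanodine receptor, had one of -0.37 ± 0.21 (SE).

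*Ctxn1* codes for cortexin, a small neuronal membrane protein, and stood at 96.3, 75.3 and 97.4 CPM after saline and 34.7, 50.04 and 67.4 CPM after DSP-4 (log2 fold change -0.81 ± 0.19, SE, edgeR unadjusted p = 0.000883). Its relative *Ctxn2* had a log2 fold change of -0.41 (edgeR unadjusted p = 0.0433), with overlapping groups. *Tppp3*, a tubulin polymerization-promoting protein, stood at 488, 451 and 428 CPM and 271, 336 and 375 CPM without overlap (log2 fold change -0.49 ± 0.14, SE). *Rab3b*, a small GTPase of synaptic and secretory vesicles, stood at 84.9, 69.6 and 78.8 CPM and 51.5, 56.4 and 65.1 CPM without overlap (log2 fold change -0.44 ± 0.14, SE), and it was the only 1 of 49 Rab genes under the unadjusted threshold. *S100a10*, the annexin A2 partner also called p11, stood at 180.4, 166 and 138 CPM and 77.9, 114 and 129 CPM, again without overlap (log2 fold change -0.55 ± 0.17, SE). *Ppp2r3d*, a regulatory subunit of protein phosphatase 2A, was low throughout, at 10.97, 11.8 and 11.6 CPM and 3.10, 5.20 and 7.40 CPM (log2 fold change -1.09 ± 0.30, SE). All of these lay lower in every DSP-4 library than in any saline library, except *Ctxn2*.

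*Nrtn*, which codes for the GDNF-family ligand neurturin, was lower with an overlap at saline library 12, at 24.6, 29.9 and 17.9 CPM after saline and 9.06, 12.5 and 18.3 CPM after DSP-4 (log2 fold change -0.82 ± 0.25, SE, edgeR unadjusted p = 0.00497). Of the 14 genes of neurotrophin and GDNF signalling, *Nenf* was the only other one under the unadjusted threshold (log2 fold change -0.44). The receptors of neurturin did not share this, with *Ret* at 0.19 ± 0.16 (SE) and *Gfra2* at 0.27 ± 0.24 (SE). *Tmsb10*, an actin monomer-binding thymosin, stood at 639.8, 621 and 435 CPM and 326, 372 and 479.8 CPM, and *Serp2*, an endoplasmic reticulum stress-associated protein, at 131, 167 and 98.6 CPM and 78.02, 91.2 and 106 CPM. In both, saline library 12 was the lowest of the saline group and reached the DSP-4 range.

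Metallothioneins, small proteins that bind zinc and copper, were among the lower genes. *Mt1* stood at 465, 757 and 354 CPM after saline and 279, 309 and 453 CPM after DSP-4, where DSP-4 library 3 was the highest of its group (log2 fold change -0.68 ± 0.22, SE, edgeR unadjusted p = 0.00747). *Mt2* stood at 223, 414 and 203 CPM and 136, 156 and 204 CPM (log2 fold change -0.78 ± 0.21, SE), and the neuronal and astrocytic *Mt3* at 769, 930.5 and 512 CPM and 413, 491 and 683 CPM (log2 fold change -0.55 ± 0.20, SE). In all of these, saline library 6 was the highest and saline library 12 lay inside the DSP-4 range. *Gpx1*, the glutathione peroxidase that removes hydrogen peroxide, followed the same order, at 211, 229.8 and 150.1 CPM and 122, 136 and 161 CPM (log2 fold change -0.50 ± 0.15, SE). Across the 52 metallothionein and antioxidant genes the median was -0.01, and 0 of the 52 had groups without overlap. At the unadjusted threshold these 4 were lower and 0 higher, beside 1.26% and 0.625% of all genes.

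Genes of oxidative phosphorylation and of the ribosome leaned lower as groups, with no single member past the FDR. All 38 measured genes listed under complex I, the NADH dehydrogenase of the respiratory chain, had a negative log2 fold change, with a median of -0.21. At the unadjusted threshold 4 were lower, *Ndufc1*, *Ndufa3*, *Ndufa2* and *Ndufa4l2*. The last of these carries an Ndufa symbol but is not itself a subunit of complex I. Of 42 subunits of complexes II to V, 35 were negative, with a median of -0.21 and 8 lower. The cytosolic ribosomal proteins were negative in 85 of 91, with a median of -0.29 and 13 lower, although near-identical pseudogene copies make single ribosomal protein genes uncertain. Mitochondrial ribosomal proteins were negative in 56 of 74, with a median of -0.11 and 3 lower, and the 13 mitochondrially encoded genes were all negative, with a median of -0.54 and 0 lower. None of these 5 groups had a member higher at that threshold or one without overlap between the groups. Among all genes the median was 0.00 and 1.26% were lower.

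The individual libraries show where these medians came from. *Uqcr11*, a small complex III subunit, stood at 303, 369 and 210.0 CPM after saline and 165, 202 and 225 CPM after DSP-4 (log2 fold change -0.57 ± 0.17, SE, edgeR unadjusted p = 0.00437). *Rps29* stood at 361, 540.1 and 135 CPM and 162, 183 and 253 CPM (log2 fold change -0.83 ± 0.30, SE), and *Rpl37* at 88.8, 115 and 51.4 CPM and 38.4, 46.1 and 64.9 CPM (log2 fold change -0.79 ± 0.24, SE). In each, saline libraries 4 and 6 were above all DSP-4 libraries, while saline library 12 was inside the DSP-4 range for *Uqcr11* and *Rpl37* and under it for *Rps29*. Saline library 12 was the lowest saline library for 32 of 38 complex I genes, 34 of 42 of complexes II to V, 89 of 91 cytosolic ribosomal proteins and 13 of 13 mitochondrially encoded genes, beside 4574 of all 12009 genes. The mitochondrially encoded *COX3*, a complex IV subunit, shows the other split, with 3506, 3947 and 916 CPM after saline and 879, 1084 and 4069 CPM after DSP-4. The highest of its DSP-4 values belonged to library 3, and without libraries 2 and 3 its log2 fold change went from -0.74 to -1.14.

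The group medians moved with single libraries. Leaving out 1 library at a time gave medians from -0.34 (without saline library 12) to -0.08 (without saline library 4) for complex I, from -0.34 (without saline 12) to -0.13 (without saline 4) for complexes II to V and from -0.46 (without saline 12) to -0.17 (without saline 6) for cytosolic ribosomal proteins. For the mitochondrially encoded genes the range was -1.15 (without DSP-4 library 3) to -0.02 (without saline library 6). Without DSP-4 libraries 2 and 3 the medians were -0.18, -0.21, -0.37 and -1.10 in the same order. At the unadjusted threshold 10, 13, 39 and 12 genes were then lower. Over all genes the share lower was also larger in that fit, at 3.96% against 1.26% with all libraries.

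**Figure D3:**
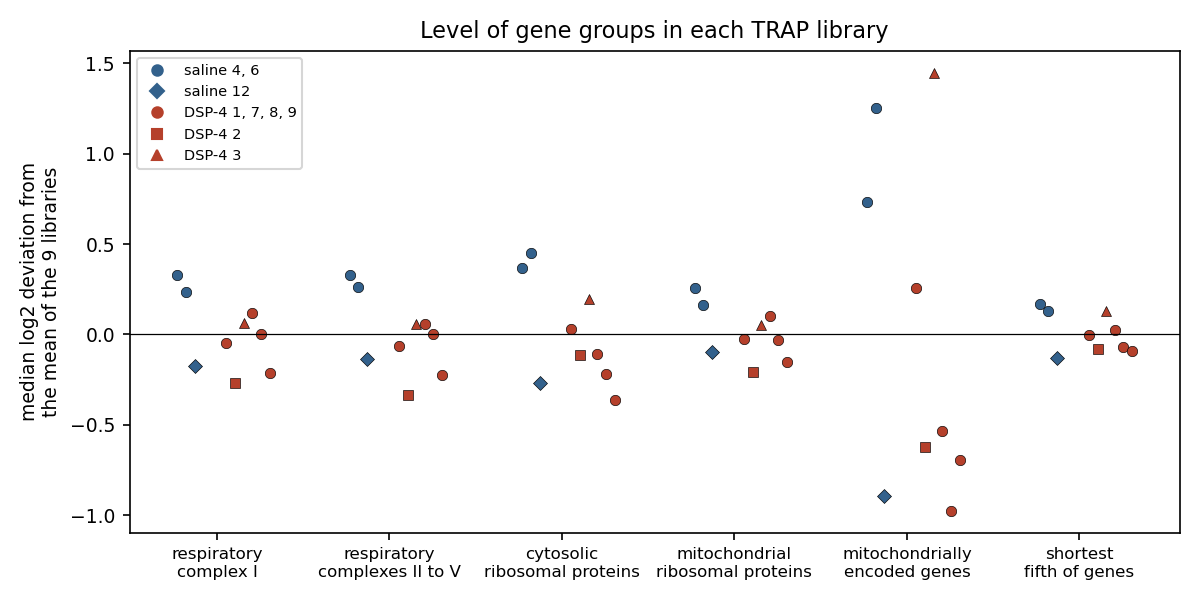
The y axis gives the median, over the genes of each group named, of the log2 CPM in a library minus the mean of the 9 libraries. Values are shown for the 6 DSP-4 and 3 saline TRAP libraries. Saline 4 and 6 lie highest for the complex I and ribosomal protein groups, and saline 12 lies there with the DSP-4 libraries.

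The level of short genes and the share of mitochondrial counts also differed between libraries. Many members of the respiratory and ribosomal groups are short. Genes were split into 5 equal groups by annotated exonic length. Of the shortest group (66 to 2549 bp, 2311 genes), 3.85% were lower at the unadjusted threshold, against 0.346% to 0.908% in the other groups. The median deviation of that shortest group from the mean of the 9 libraries was 0.17 on the log2 scale in saline library 4, 0.13 in saline 6 and -0.13 in saline 12. Of the 25 lower genes of smallest p, 20 of the 24 that were annotated were in the shortest group, with a median exonic length of 1414.5 bp against 4569 bp over all genes. For the 25 higher genes the median was 4312 bp. The mitochondrially encoded share of counts ran from 0.53% to 2.32% in saline and from 0.537% to 2.64% in DSP-4 TRAP libraries, and from 4.66% to 6.77% in input. The part of length, RNA quality or input carry-over in the medians of the respiratory and ribosomal groups was not tested.

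The other functions of neurons gave medians near that of all genes. Over all genes 1.26% were lower and 0.625% higher at the unadjusted threshold, and 0.541% lower and 0.65% higher had no overlap. Synaptic vesicle release genes (51 measured) had a median log2 fold change of 0.03, with 1 lower, which was *Rab3b*, and 1 higher, *Syt10*, a synaptotagmin, at 0.66 ± 0.27 (SE). Without DSP-4 libraries 2 and 3 their median was -0.06, with 34 of the 51 negative. Potassium channels (52) had a median of 0.00 with 1 higher, *Kcns2*, a modulatory subunit, at 15.7, 8.64 and 16.5 CPM after saline and 17.1, 20.6 and 22.2 CPM after DSP-4 without overlap. Sodium, calcium and HCN channels (32) had a median of -0.08, glutamate receptors (30) one of 0.01, and GABA and glycine receptors (19) one of 0.04, all with none under the unadjusted threshold. *Gabrq*, the theta subunit of the GABA-A receptor, named here after its values were seen, had groups that did not overlap, at 25.1, 28.5 and 27.2 CPM after saline and 20.1, 21.6 and 23.3 CPM after DSP-4 (log2 fold change -0.32 ± 0.16, SE, edgeR unadjusted p = 0.0707). Axon guidance genes (55) had a median of 0.08 with 1 higher, *Epha7*, an ephrin receptor, at 0.45 ± 0.20 (SE). Genes of the response to axon injury (41) had a median of 0.03 with 1 lower, which was *Gal* itself.

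Solute carriers, the largest transporter family (213 measured), had a median of 0.02, with *Slc6a2* the only member past the FDR. At the unadjusted threshold 3 were lower and 4 higher. Groups did not overlap for 4 lower and 5 higher members, beside 0.541% lower and 0.65% higher over all genes. The 3 lower are 1.41% of the family, close to the 1.26% of all genes, and the 4 higher are 1.88%, beside 0.625%. *Slc5a5*, the sodium-iodide symporter, was among the higher ones at 22.8, 9.53 and 8.04 CPM after saline and 14.4, 23.3 and 29.96 CPM after DSP-4, and saline library 4 lay inside the DSP-4 range (log2 fold change 0.82 ± 0.33, SE).

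For cytoskeletal genes the sign of the list medians rested on saline library 12. Of 54 neurofilament, tubulin and microtubule-associated genes, 43 were negative, with a median of -0.10 and 2 lower at the unadjusted threshold, *Dcx* at -0.90 ± 0.38 (SE) and *Map1a* at -0.49 ± 0.22 (SE). *Map1a* stood at 229, 271 and 461 CPM after saline, so that its difference came from saline library 12, since the others lay inside the DSP-4 range of 170.0 to 291 CPM. The list median was 0.01 without saline library 12, where the median of all genes was 0.03. Without DSP-4 libraries 2 and 3 the list median was -0.07 with 0 lower at that threshold. Axonal transport motors (44) had a median of -0.05, or 0.05 without saline library 12, with 1 lower, *Dynlrb1*, a dynein light chain, at -0.37 ± 0.16 (SE).

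Genes of stress and cell death had few members under the unadjusted threshold. The 27 measured Bcl2 family, caspase and scramblase genes had a median of 0.06 and 1 higher, *Xkr8*, a scramblase that caspases switch on to expose phosphatidylserine. *Xkr8* was low, at 2.70, 4.29 and 5.26 CPM after saline and 6.77, 7.71 and 8.46 CPM after DSP-4, without overlap (log2 fold change 0.89 ± 0.32, SE, edgeR unadjusted p = 0.0141). The unfolded protein and integrated stress response (31 genes) had a median of -0.07, the proteasome (41) one of -0.02 and immediate early genes (27) one of -0.01, with none under the unadjusted threshold in either direction. In the unfolded protein list 22 of 31 were negative. Chaperones (55) were negative in 41, with a median of -0.08. That median was 0.03 without saline library 12, beside 0.03 for all genes, and -0.01 without DSP-4 libraries 2 and 3. At the unadjusted threshold 1 was higher, *Hspa1l*, an HSP70 relative, at 4.76, 3.63 and 5.74 CPM and 6.59, 9.18 and 11.5 CPM without overlap (log2 fold change 0.96 ± 0.31, SE).

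**Figure D4:**
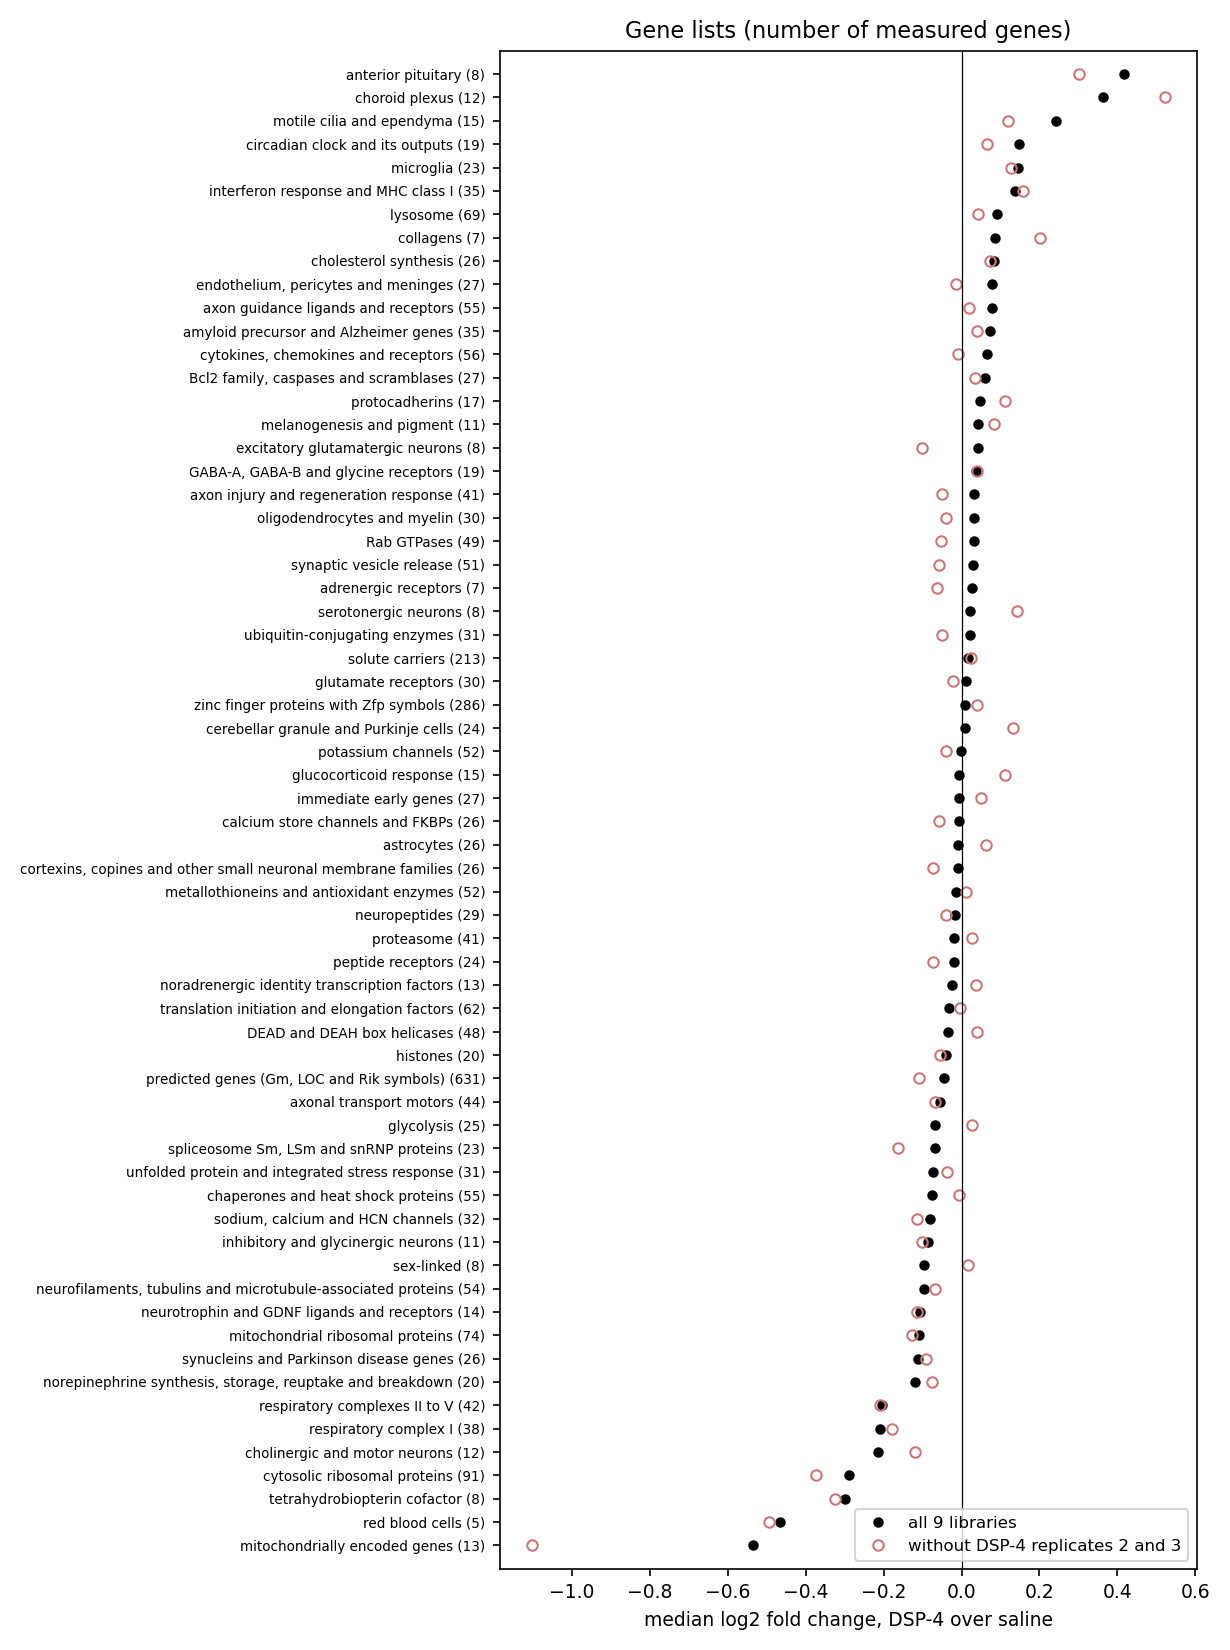
Each row is 1 of the 64 gene lists and families, with the median log2 fold change of its measured genes on the x axis, filled for all 9 libraries and open without DSP-4 libraries 2 and 3. Mitochondrially encoded genes (-0.54) and red blood cell genes (-0.47) lie farthest left, and anterior pituitary (0.42) and choroid plexus (0.36) farthest right.

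On the higher side no gene passed the FDR, and the smallest unadjusted p was that of *Mitf*, the basic helix-loop-helix factor best known from melanocytes. *Mitf* stood at 9.62, 12.8 and 11.8 CPM after saline and 18.5, 19.7 and 23.5 CPM after DSP-4, so that the lowest DSP-4 library was above the highest saline library (log2 fold change 0.82 ± 0.20, SE, edgeR unadjusted p = 0.00105). The values of the DSP-4 libraries were close together, libraries 2 and 3 included, and in input *Mitf* was at 9.07, 5.78, 8.99 and 10.02 CPM in DSP-4 2, DSP-4 7, saline 5 and saline 12. The 11 measured genes of melanogenesis and pigment had a median of 0.04, with *Mitf* alone under the unadjusted threshold. *A830018L16Rik* came next, at 30.8, 27.5 and 27.4 CPM and 39.3, 41.7 and 42.98 CPM, also without overlap (log2 fold change 0.54 ± 0.15, SE).

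Of the 25 higher genes of smallest p, 15 had groups that did not overlap, beside 0.65% of all genes. Without libraries 2 and 3, 22 were again under the unadjusted threshold, beside 1.53% of all genes higher there. These genes too were picked by p in the same libraries, so both counts follow in part from that choice and lend the genes no support. *H2-T23*, the non-classical class I molecule Qa-1, stood at 12.4, 10.1 and 8.28 CPM after saline and 13.9, 16.7 and 18.1 CPM after DSP-4 without overlap (log2 fold change 0.67 ± 0.22, SE, edgeR unadjusted p = 0.009). Of the 35 interferon and class I genes 2 were higher (5.71%, beside 0.625% of all genes) and 0 lower at the unadjusted threshold, with a median of 0.14. The second of the 2 was *Ifit3*, an interferon-induced gene, at 0.57 ± 0.26 (SE). That list median ran from 0.05 without saline library 12 to 0.17 without DSP-4 library 9. *Slc13a3*, a sodium-dependent dicarboxylate transporter, stood at 19.7, 21.1 and 17.1 CPM and 23.3, 27.6 and 32.1 CPM without overlap (log2 fold change 0.51 ± 0.19, SE). *Inppl1*, which codes for the inositol phosphatase SHIP2, stood at 5.46, 10.7 and 9.30 CPM and 11.5, 13.2 and 16.8 CPM, likewise without overlap (log2 fold change 0.72 ± 0.27, SE). *Tmod1*, an actin-capping tropomodulin, and *Rai14*, an actin-binding ankyrin protein, were under 11 CPM in every library, with log2 fold changes of 1.11 ± 0.40 and 1.05 ± 0.39 (SE).

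Genes of sterol synthesis showed small differences. Of 26 measured, 22 had a positive log2 fold change, with a median of 0.08. At the unadjusted threshold 2 were higher, beside 0.625% of all genes, and 0 lower. Groups did not overlap for 3, all higher, beside 0.65% of all genes. These were *Lss*, *Idi1* and *Hsd17b7*, the last picked out after its values were seen. Without DSP-4 libraries 2 and 3, 18 of the 26 were positive, with a median of 0.07. *Lss*, lanosterol synthase, stood at 14.4, 12.3 and 16.5 CPM after saline and 16.6, 20.6 and 26.7 CPM after DSP-4, where the gap between the groups was narrow (log2 fold change 0.53 ± 0.21, SE, edgeR unadjusted p = 0.023). *Idi1*, the isopentenyl diphosphate isomerase, stood at 225, 202 and 235 CPM and 249, 275 and 320.0 CPM (log2 fold change 0.32 ± 0.13, SE, edgeR unadjusted p = 0.0309). *Hmgcs1*, an early enzyme of the pathway, overlapped, with a log2 fold change of 0.09 ± 0.18 (SE).

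Among markers of other cells, pituitary hormones were higher in most DSP-4 libraries but were also high in some input libraries. *Gh*, growth hormone, stood at 8.21, 9.72 and 2.24 CPM after saline and 3.11, 47.6 and 332 CPM after DSP-4, with the highest value in library 8 and the lowest in library 2 (log2 fold change 3.79 ± 1.11, SE, edgeR unadjusted p = 0.00414). *Prl*, prolactin, stood at 16.2, 3.07 and 2.34 CPM and 0.859, 102 and 318 CPM (log2 fold change 4.01 ± 1.35, SE), and *Pomc*, the precursor of corticotropin and melanocyte-stimulating hormone, at 16.1, 9.77 and 11.6 CPM and 2.94, 34.7 and 66.8 CPM (log2 fold change 1.45 ± 0.62, SE). Library 2 was the lowest of the DSP-4 group for all of these and lay under or within the saline range. In input, *Gh* was at 20.8, 158, 78.8 and 5.72 CPM and *Prl* at 6.35, 251, 111 and 0.425 CPM in DSP-4 2, DSP-4 7, saline 5 and saline 12. Of the 8 pituitary markers measured, 4 were higher at the unadjusted threshold (*Gh*, *Prl*, *Pomc* and the transcription factor *Six3*), beside 0.625% of all genes. The other 4 had a negative log2 fold change. Summed over the 8, the level ran from 548 to 568 CPM after saline and from 516 to 1040 CPM after DSP-4. The part of pituitary tissue in these values was not tested.

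Choroid plexus markers varied widely within both groups. All 12 had a positive log2 fold change, with a median of 0.36 and none under the unadjusted threshold, and their summed level ran from 1350 to 2080 CPM after saline and from 667 to 5460 CPM after DSP-4. *Ttr*, transthyretin, stood at 968, 861 and 440.0 CPM after saline and 54.6, 695 and 2760.2 CPM after DSP-4, with library 8 the highest and library 9 the lowest. The list median was 0.09 without library 8. Red blood cell genes (5) had a median of -0.47, which ran from -0.66 without saline library 12 to -0.20 without saline library 6. At the unadjusted threshold 2 were lower, beside 1.26% of all genes, the near-identical alpha-globin copies *Hba-a1* and *Hba-a2*. *Hba-a1* stood at 269, 441 and 162 CPM and 120.3, 181 and 273 CPM. Motile cilia and ependyma markers (15) had a median of 0.24 with 1 higher, beside 0.625% of all genes. This was the cilia factor *Foxj1*, at 3.13, 1.89 and 6.52 CPM and 5.18, 7.88 and 8.87 CPM with an overlap at saline library 12. Microglial markers (23) had a median of 0.15, astrocyte markers (26) one of -0.01 and oligodendrocyte markers (30) one of 0.03, with none under the unadjusted threshold. Markers of cerebellar granule and Purkinje cells (24) also had none, with a median of 0.01 that moved to 0.54 without saline library 6 and to -0.17 without saline library 4. Their summed level was 1540, 3030 and 1490 CPM in saline libraries 4, 6 and 12 and ran from 1530 to 2610 CPM after DSP-4, and saline library 6 lay above all DSP-4 libraries for 14 of the 24. The part of cerebellar tissue in other values of saline library 6 was not tested. Serotonergic markers (8) had a median of 0.02, and cholinergic and motor neuron markers (12) one of -0.21, which moved to -0.08 without DSP-4 library 3.

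**Figure D5:**
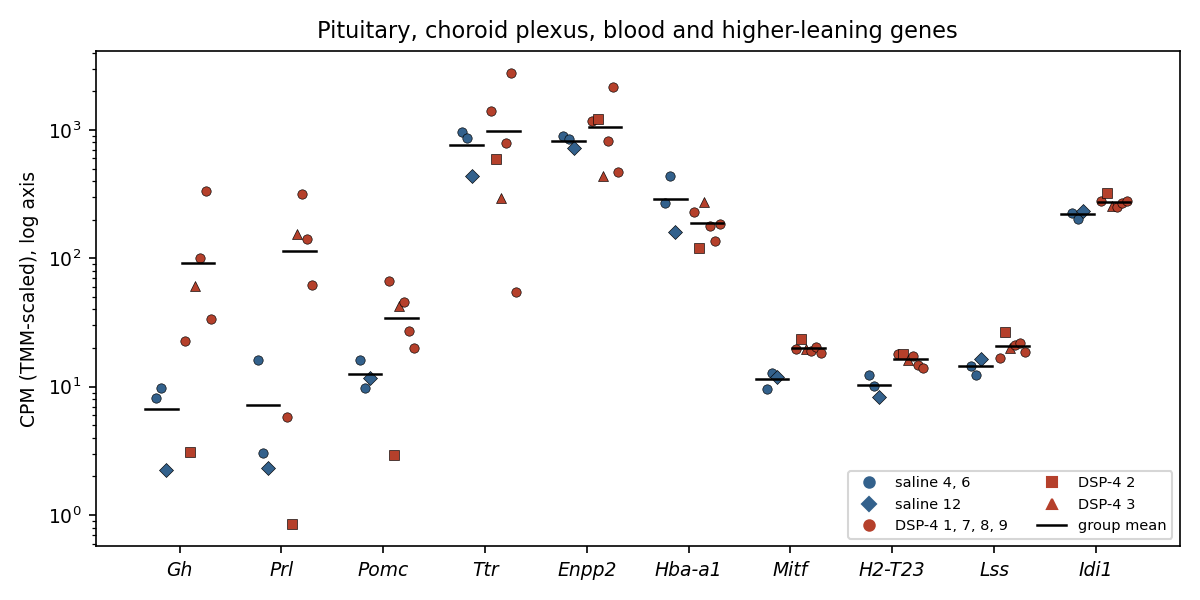
The x axis lists genes of other cell types or of a higher group, and the log y axis gives their CPM in the 9 TRAP libraries. Symbols are those of the figure of noradrenergic genes, with a bar at the group mean. *Gh*, *Prl*, *Ttr* and *Enpp2* are spread widely within the DSP-4 group, whereas *Mitf* and *H2-T23* are close together and clear of the saline libraries.

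Y-linked genes split the libraries of both groups. DSP-4 libraries 1, 2 and 8 and saline libraries 6 and 12 had all 4 of the Y-linked genes above 1 CPM, with summed levels of 127 to 173 CPM, and DSP-4 libraries 3, 7 and 9 and saline library 4 had 0 of the 4, with summed levels of 0 to 0.99 CPM. The labels do not give the sex of a pool, and a term for sex was not fitted.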

How the data were processed

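RNA bound to tagged ribosomes (TRAP) and total RNA of the same kind of tissue (input) had been sequenced. The authors aligned reads with STAR to mm10 and made gene counts with featureCounts. For both tools the version, and also the annotation and strand setting, were not given in the sources used here. The deposited table is named as normalized but holds whole-number counts, with no gene under a mean count of 78.4 over the 13 libraries, so that genes of low count had been left out before deposit. The gene identifiers are symbols, of which 11555 matched GENCODE vM21 and 21 are plain numbers.

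The 9 TRAP libraries were grouped by label (6 DSP-4, 3 saline) and tested over all 12009 genes with edgeR 4.0.16 in R 4.3.3, by TMM scaling and the quasi-likelihood test, and genes were called at an adjusted p (Benjamini-Hochberg FDR) under 0.1. The common biological coefficient of variation was 0.271, and pairs of libraries of 1 group differed by 24.3 to 194.9 chi-square units per gene, so none were duplicates. Log2 CPM used a prior count of 1. Groups were said not to overlap when all 6 DSP-4 values were on the same side of all 3 saline values. Input libraries (2 for each treatment) were only described, on a scale set over all 13 libraries. The fit was tested on simulated data with known changes. The genes named were those past the FDR, the 25 of smallest p in each direction, and up to 4 of each list under the unadjusted threshold. Further members of a pathway or cell type, such as *Ddc*, *Slc18a2*, *Spr*, *Ryr2*, *Ret*, *Hmgcs1*, *COX3* and *Ttr*, were added with their values known, to show where the rest of a list lay. The members and lists were chosen with earlier results of these data known. Each pool is a separate set of mice, and p-values measure the spread between pools. Alternatives were DESeq2 1.42.0 and its size factors, total counts, limma 3.58.1 (trend, and voom with quality weights), edgeR's robust option, filters on low values, a fit over 13 libraries, other FDR thresholds and left-out libraries. Counting error is small at these depths beside the spread between pools. Results for some items are not reported here.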

Additional observations from a re-analysis of the deposited data

Results flagged for a closer look

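Values were held against the rest of their group by the gap of the highest or lowest library to its nearest neighbour, as a share of the group's range. Among the 6 DSP-4 libraries, 5 of the 96 measures tested stood apart (5.21%), where chance gives about 1 in 20. *Mt1* was highest in DSP-4 library 3 at 453.0 CPM, with the next at 340.4 CPM. *Gh* was highest in DSP-4 library 8 at 332.1 CPM, with the next at 100.4 CPM. *Phox2a* was highest in DSP-4 library 9 at 12.33 CPM, with the next at 6.833 CPM. *Mrpl52*, a mitochondrial ribosomal protein gene, was highest in DSP-4 library 3 at 78.12 CPM, with the next at 58.56 CPM. The share of mitochondrially encoded counts was highest in DSP-4 library 3 at 2.64%, with the next at 1.22%. Of these 5, 3 belong to library 3. Groups of 3 were not held against this measure.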

How the results depend on the processing

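No paired analysis was possible because the DSP-4 and saline TRAP libraries share no replicate number. The alternatives were computed for the 91 genes that the naming rule gave, and not for genes added beside them such as *Ddc*, *Ttr* or *COX3*. None of the 91 changed direction, and 1760 of their values stayed on their side of the FDR threshold, 24 lost it (all *Gal*, *Dbh* or *Slc6a2*) and 36 gained it, most of them in the added fit described at the end. The count of lower genes past the FDR, 3 here, was 0 to 3 with single libraries left out, 1 with total counts, 1 at an FDR threshold of 0.05, 5 with DESeq2 (*Th* and *Fkbp1b* added), 4 with voom quality weights (*Fkbp1b* added) and 2 with DESeq2 size factors in edgeR or with all 13 libraries in the fit. The count of higher genes past the FDR was 0 under all of these. The count lower at the unadjusted threshold, 151 here, was 47 to 306 with single libraries left out, 475 without DSP-4 libraries 2 and 3, 100 with total counts and 795 with voom quality weights. The count higher, 75 here, was 62 to 147, 184, 113 and 241 in the same order, and 127 with all 13 libraries. The CPM filter kept all genes and gave the same values. A fit without DSP-4 libraries 2 and 3 and saline library 12 was added after seeing the data, and saline library 12 was picked by its own values, so nothing above rests on it. It gave 183 lower and 3 higher genes past the FDR (*Gh*, *Pomc* and *Gm2808*) and 877 lower and 295 higher at the unadjusted threshold. *Slc6a2* was over the FDR threshold with DESeq2 size factors (edgeR FDR = 0.103), with total counts (0.113, as was *Dbh*) and with all 13 libraries (0.162). The cause of these moves was not tested. The lower and higher counts of genes without overlap, added after seeing the data, were 65 and 88 with size factors and 51 and 113 with total counts.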
